A study of Mus musculus with 6 samples.

Results

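The genes described here are 8 receptors that guide B cells to and within tissues: the chemokine receptors Cxcr4, Cxcr5, Ccr2, Ccr6, Ccr7 and Ccr9, and the positioning receptors Cnr2 and Gpr183, which bind lipids. They were taken by name, each through its 1 probe annotated to that gene alone, out of 19938 genes measured. RNA came from mouse pre-B cells that the oncogenic tyrosine kinase BCR-ABL1 had transformed, a model of Ph+ acute lymphoblastic leukemia. Both groups shared the Balb/c strain, an age of 4 weeks, the genotype label Blnk KO and BCR-ABL1. They differed in the retroviral transduction: 3 samples received pMIG, the vector that carries GFP, and 3 received Blnk (Slp65), an adaptor protein downstream of the pre-B cell receptor. On day 5 after transduction the cells with GFP were sorted, and 1 Affymetrix array was run per sample. Blnk was thus supplied from a vector to cells that already carried the kinase. Whether the 3 samples of a group were separate cultures or mice is not in the labels, so each p-value reflects the spread of these samples alone, and that spread may be technical.

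Chemokine receptors and their lipid-binding relatives are G protein-coupled receptors that span the membrane in helices and signal mainly through inhibitory G proteins to move a cell up a gradient of its ligand. Developing B cells are held in bone marrow by CXCL12 acting on CXCR4. As they mature they gain receptors that lead them to follicles (CXCR5), to T cell zones (CCR7), to the border between both (GPR183) and to mucosal or marginal sites (CCR6, CCR9, CNR2).

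After transduction with Blnk, 5 of the 8 receptors were higher than with pMIG: Ccr6, Cnr2, Cxcr5, Ccr9 and Ccr7, by 1.63-fold to 2.41-fold. Cxcr4, Ccr2 and Gpr183 did not pass the test. None of the 8 fell (limma, 0 lower also at an unadjusted p under 0.05, against 6 higher). A gene passed at a Benjamini-Hochberg adjusted p under 0.05 in limma over all 19938 genes. Of those, 2.51% passed upward and 1.10% downward, 3.61% in all. The share of all genes at an unadjusted p under 0.05 is not given here. Counts at that level, for the 8 receptors and for the lists below, thus have no background beside them. On 6 of the 8 receptors every Blnk array was above every pMIG array, which held for 11.8% of all genes, and on 0 of the 8 every Blnk array was below, which held for 8.15%. The 8 receptors were chosen with earlier results of these data known, so the share of 5 in 8 is a description. Their median log2 fold change (mean log2 intensity with Blnk minus that with pMIG) was 0.78, where the median over all genes was 0. In sorted but bulk RNA, more cells that express a receptor and more receptor RNA per cell cannot be told apart.

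The arrays were alike in brightness, with medians of 67.0 to 70.0 on the linear intensity scale, and no array stood apart (lowest correlation within a group 0.995 across genes). Blnk itself, whose level checks the labels of the vector, rose 3.11-fold (limma adjusted p = 0.000101). Its probe read 972, 926 and 1013 with pMIG, far above the array medians, although both groups carry the label Blnk KO. The genotype label is thus not checked by this probe, and the source of its signal with pMIG was not tested. All 6 measured B-lineage markers, among them Pax5, Ebf1, Igll1 and Cd79a, were bright, with means of 1418 to 9853. They were not all level between the groups. Vpreb1 fell (log2 -0.68, limma adjusted p = 0.00976), Cd79a rose (log2 0.31, limma adjusted p = 0.0468) and 4 did not pass. Markers of other cells were mostly dim: 0 of 10 monocyte, macrophage and granulocyte genes lay above the array median, 2 of 8 T and NK genes, 2 of 7 dendritic cell genes and 2 of 6 erythroid and stromal genes. The highest in these lists were Mpo and Elane, Cd8a and Cd3e, Cox6a2 and Siglech, and Col1a1 and Col1a2. Summed intensity overlapped between pMIG and Blnk samples in each of these lists: 302 to 330 against 312 to 329 for the monocyte list, 349 to 425 against 375 to 469 for T and NK cells, 389 to 401 against 384 to 446 for dendritic cells and 352 to 432 against 354 to 421 for the last.

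**Figure D1:**
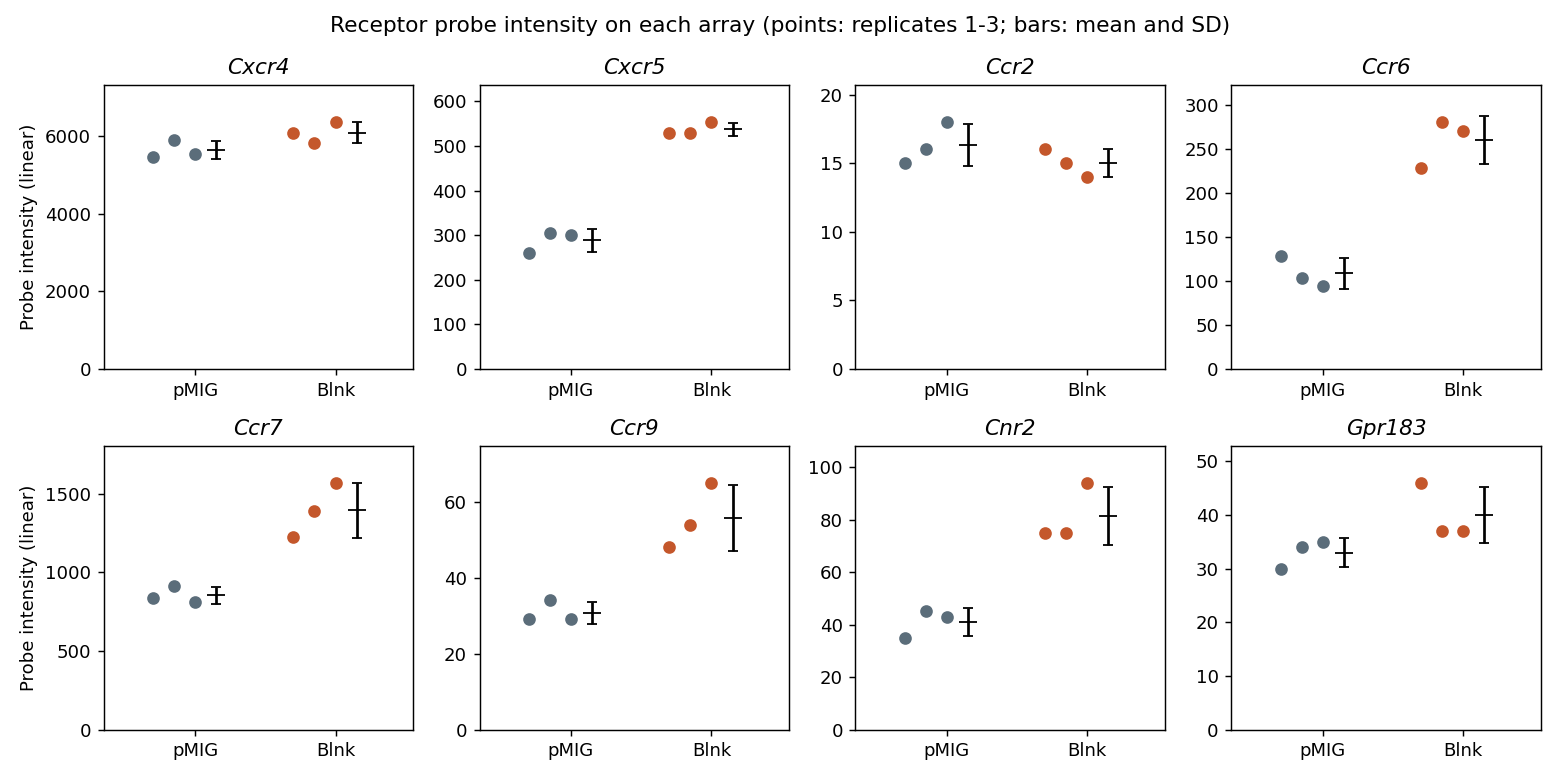
Linear probe intensity (vertical axes, each from 0) of the 8 receptors on every array, with points for replicates 1 to 3 of pMIG (grey) and Blnk (orange) and bars for mean and SD. The groups are separate, with Blnk higher, for Cxcr5, Ccr6, Ccr7, Ccr9, Cnr2 and, narrowly, Gpr183. They overlap for Cxcr4 and Ccr2.

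Cxcr5 binds CXCL13 and leads B cells into follicles. Its intensity was 259, 306 and 301 in the pMIG samples and 529, 530 and 554 in the Blnk samples. All 3 Blnk arrays lay close together and far above every pMIG array. The rise was 1.87-fold (95% interval 1.63 to 2.14; log2 0.90, SE 0.084; limma adjusted p = 0.00111). Of the 8 receptors it had the smallest adjusted p, and it passed whichever array was left out (0.00439 to 0.0154).

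Ccr7 binds CCL19 and CCL21 and draws lymphocytes to T cell zones. The pMIG samples read 838, 913 and 809, and the Blnk samples 1222, 1392 and 1570. The groups did not overlap, though the Blnk samples were spread out (SD 174, against 53.7 with pMIG). Ccr7 rose 1.63-fold (95% interval 1.38 to 1.92; log2 0.70, SE 0.10; limma adjusted p = 0.0103). It did not pass without pMIG replicate 1 (0.0600), pMIG replicate 3 (0.0768) or Blnk replicate 2 (0.0714), while its log2 fold change stayed between 0.61 and 0.79.

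Gpr183, also called EBI2, senses oxysterols and places activated B cells at the outer edge of follicles. It was dim: pMIG samples read 30, 34 and 35, and Blnk samples 46, 37 and 37. The lowest Blnk samples lay 2 intensity units above the highest pMIG sample, and Blnk replicate 1 was well above the other two. The change was 1.21-fold (95% interval 1.01 to 1.44; log2 0.27, SE 0.11) and did not pass (limma adjusted p = 0.287). Without Blnk replicate 1 the log2 fold change was 0.17. Its interval nearly reaches no change at one end and leaves room for a rise of 1.44-fold at the other. At this brightness 1 unit of the whole-number intensities is a step of 0.043 on the log2 scale.

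Ccr6 binds CCL20, marks mature B cells and serves at mucosal sites. It read 128, 104 and 94 with pMIG and 229, 281 and 271 with Blnk. The lowest Blnk array was well above the highest pMIG array. Its rise of 2.41-fold (95% interval 1.95 to 2.97; log2 1.27, SE 0.13; limma adjusted p = 0.00190) had the highest log2 fold change of the 8 receptors and stood 53rd among all genes. It passed with any array left out (0.00439 to 0.0258).

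Cnr2 encodes the cannabinoid receptor of immune cells, which binds endocannabinoid lipids and helps hold immature B cells in marrow sinusoids and B cells in the splenic marginal zone. Its intensity was 35, 45 and 43 in pMIG samples and 75, 75 and 94 in Blnk samples. The groups did not overlap, with every pMIG sample below the array medians and every Blnk sample above them. The change was 1.98-fold (95% interval 1.62 to 2.44; log2 0.99, SE 0.13; limma adjusted p = 0.00583), and it passed with any array left out (0.0191 to 0.0427).

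The stretches of DNA before annotated transcription starts of these genes were searched for letters that B-cell factors read. For Ccr2 the window lies inside the annotated gene, before a start downstream of the gene's first base. RefSeq's promoter table (GRCm38.p6) held 8 windows for 6 of the 8 receptors, with 2 each for Ccr6 and Cnr2, and no sequence is given here for Cxcr5 or Ccr7. The search covered the 250 bases before each start on both strands, for the octamer ATGCAAAT read by POU-domain factors such as OCT2, GGNNTTTCC (NF-kB), TGTTTAC (FOXO), GAGGAAGT (ETS factors such as PU.1), CCCNNGGG (EBF) and CCACACCC (KLF). No 2 of these motifs overlapped, since the octamer was the only one found. It was present in 2 of the 8 windows, the first of Ccr6 and the first of Cnr2. These receptors also had the highest log2 fold changes. However, Cxcr5 and Ccr7 had no window to search, only Ccr6 and Cnr2 had 2, and a link to the rise was not tested. Among all 32841 windows of that length, 1.60% held the octamer, 4.93% the NF-kB letters, 3.17% FOXO, 2.44% ETS, 11.8% EBF and 3.20% KLF. Both windows are shown 5′ to 3′ along the gene, with the octamer in capitals. It reads ATTTGCAT here because it lies on the opposite strand.
Ccr6 (chr17:8235793-8236042, plus strand): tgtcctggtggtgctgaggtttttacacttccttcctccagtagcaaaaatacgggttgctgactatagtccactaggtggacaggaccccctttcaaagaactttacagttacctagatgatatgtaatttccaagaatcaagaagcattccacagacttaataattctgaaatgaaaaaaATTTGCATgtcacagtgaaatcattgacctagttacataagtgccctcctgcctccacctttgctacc
Cnr2 (chr4:135894939-135895188, plus strand): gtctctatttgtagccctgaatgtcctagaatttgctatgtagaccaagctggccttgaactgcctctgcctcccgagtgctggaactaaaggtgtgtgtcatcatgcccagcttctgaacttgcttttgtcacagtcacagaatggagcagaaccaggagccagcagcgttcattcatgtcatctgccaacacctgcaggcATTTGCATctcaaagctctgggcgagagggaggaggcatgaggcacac
In Ccr6 the octamer spans positions -68 to -61 and in Cnr2 -48 to -41, with the base before the start counted as -1. The second window of each gene, before another start, lacks it, as do those of Cxcr4, Ccr2, Ccr9 and Gpr183. Such a match describes letters and does not show that a factor bound there, and a window without it says nothing about the factor.

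Ccr9 binds CCL25 and directs lymphocytes and plasmacytoid dendritic cells to the gut and thymus. It was dim, with readings of 29, 34 and 29 in pMIG samples and of 48, 54 and 65 in Blnk samples. Every Blnk sample was above every pMIG sample, with the Blnk samples more spread (SD 8.62 against 2.89). The rise was 1.81-fold (95% interval 1.48 to 2.20; log2 0.85, SE 0.12; limma adjusted p = 0.00959). Like Ccr7 it did not pass without pMIG replicate 1 (0.0601), pMIG replicate 3 (0.0742) or Blnk replicate 2 (0.0668). Siglech, a surface lectin of plasmacytoid dendritic cells, also rose, from 53.0 ± 5.57 to 117.7 ± 18.6 (SD, n = 3; log2 1.14, limma adjusted p = 0.00313), whereas the other 6 measured dendritic cell markers did not pass. Of those 6, Cox6a2 went the other way, with 148, 153 and 140 in pMIG samples and 102, 125 and 128 in Blnk samples. Its log2 fold change was -0.32 (limma adjusted p = 0.167), and the median of the dendritic cell list was -0.03. The summed intensity of that list, given above, can therefore hide opposite changes. The part of plasmacytoid dendritic cells in the rise of Ccr9 was not tested.

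Cxcr4, the receptor that keeps B-cell precursors beside CXCL12-producing stroma, was bright in both groups. It read 5456, 5896 and 5554 with pMIG and 6086, 5819 and 6369 with Blnk. The ranges overlapped, with Blnk replicate 2 below pMIG replicate 2. The change was 1.08-fold and did not pass (95% interval 0.964 to 1.21; log2 0.11, SE 0.071; limma adjusted p = 0.536). The interval leaves out a rise of more than 1.21-fold.

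Ccr2, the receptor of inflammatory monocytes for CCL2, was at the dim end of the scale, with 15, 16 and 18 in the pMIG samples and 16, 15 and 14 in the Blnk samples. These values span 4 intensity units, and 1 unit is a log2 step of 0.086, so little can be said of its change (log2 -0.12, SE 0.092; limma adjusted p = 0.617). Monocyte markers were likewise dim on these arrays, with means of 17.0 to 44.2.

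**Figure D2:**
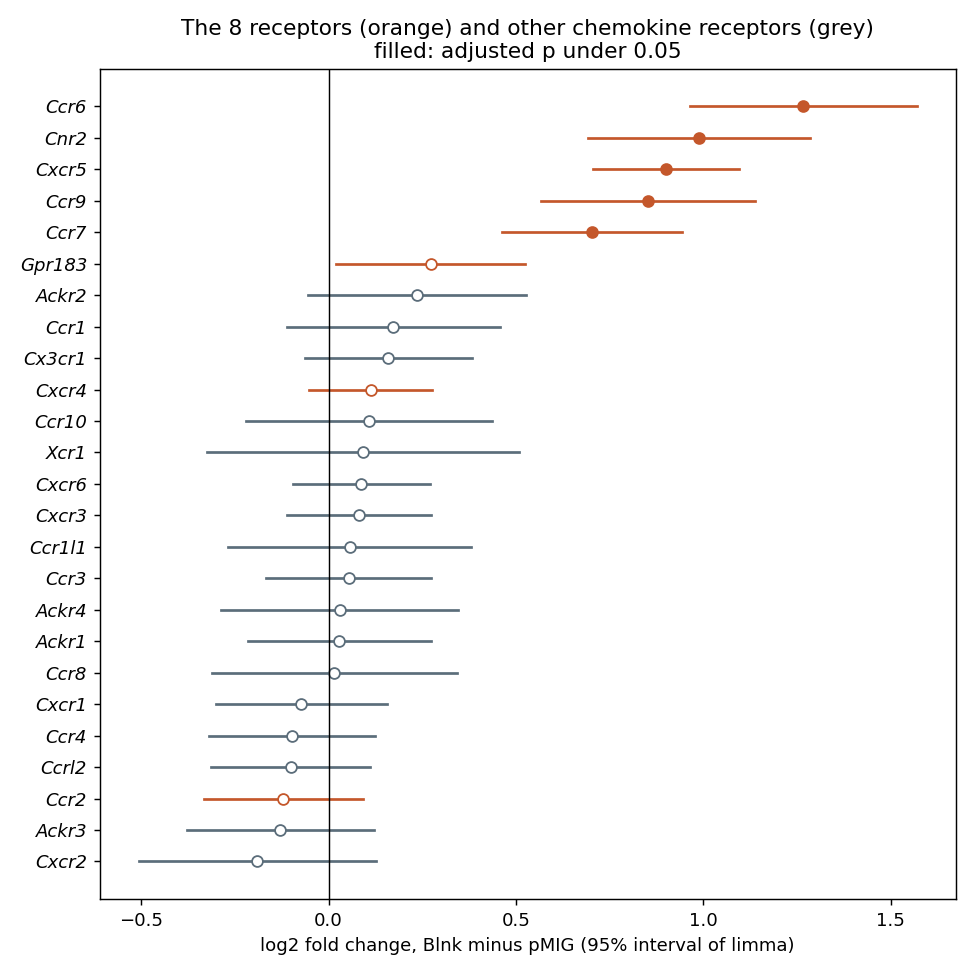
Log2 fold change, Blnk minus pMIG, with the 95% interval of limma, for the 8 receptors (orange) and 17 other chemokine receptors (grey). Filled points passed at an adjusted p under 0.05. The 5 filled points lie between 0.70 and 1.27, and all other receptors lie between -0.19 and 0.27. Both sets were chosen with earlier results of these data known.

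Among the 5 receptors that rose, the fold intervals of Ccr7 (1.38 to 1.92) and Ccr6 (1.95 to 2.97) were apart, and those of every other pair overlapped. The difference between 2 receptors was tested through their log2 ratio on each array, for all 28 pairs, with a two-sided exact permutation test. With 3 arrays against 3 the exact test cannot go below p = 0.1, which 19 pairs reached, and the smallest adjusted value over the 28 pairs was 0.147. The log2 fold change of Cxcr4 minus that of Ccr6 was -1.15 (SE 0.18), and that of Cxcr4 minus that of Cxcr5 was -0.79 (SE 0.061), each with exact p = 0.1. Ccr6 exceeded Ccr7 by 0.56 (SE 0.15, exact p = 0.1), while Cxcr5 and Ccr9 differed by 0.05 (SE 0.13, exact p = 0.7). Each array was also set against its own group's mean. pMIG replicates 1 to 3 were above it for 1 (Ccr6), 6 and 4 of the 8 receptors. Blnk replicates 1 to 3 were above it for 2, 3 and 6. Whether an array shifted several receptors together was not tested.

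The genes whose profiles over the 6 arrays were most like those of the risen receptors were taken by the smallest root-mean-square difference of mean-centred log2 values, among 10353 named genes with a mean log2 intensity of at least 6. Those nearest to Cxcr5 were Stx7 (0.047), Ptprj (0.048) and Ell2 (0.064), a syntaxin of endosomes, a receptor tyrosine phosphatase and a transcription elongation factor. Ccr6 was nearest to Slfn2 (0.064), Slc29a3 (0.10) and the transcriptional repressor Zbtb32 (0.13). Ccr7 was nearest to the lysosomal protease Ctsb (0.056), the lipid amidase Naaa (0.060) and Lynx1 (0.063). For Ccr9 they were Serpinb9c (0.050), Ccr7 itself (0.086) and the acid phosphatase Acp5 (0.088). For Cnr2 they were Cdh17 (0.061), the transcription factor Klf2 (0.073) and Serpinb9c (0.095). With 2 groups on 6 arrays, these distances mostly reflect a like size of rise.

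**Figure D3:**
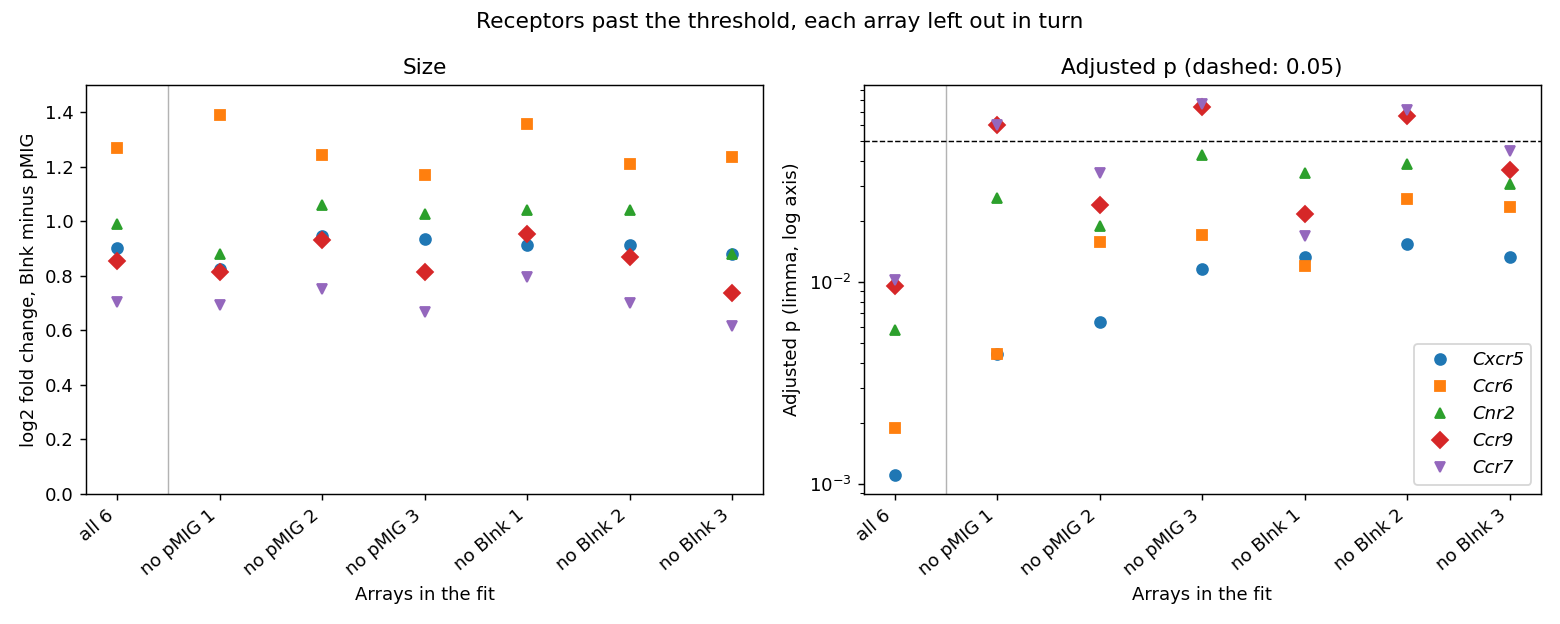
Log2 fold change (left) and limma adjusted p on a log axis (right) of the 5 receptors that passed, with all 6 arrays and with each array left out in turn. Fold changes stay between 0.61 and 1.39. Ccr7 and Ccr9 cross the dashed line at 0.05 without pMIG replicate 1, pMIG replicate 3 or Blnk replicate 2.

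The rest of the chemokine receptor family did not pass. The split of the family was made with earlier results of these data known, so this contrast is a description. Of 17 other measured receptors, typical and atypical, 0 rose and 0 fell (limma, 0 higher and 0 lower also at an unadjusted p under 0.05), with a median log2 fold change of 0.05 and a range of -0.19 to 0.24. The top of that range was Ackr2, a scavenger of inflammatory chemokines, at 55.0 ± 9.17 with pMIG and 64.3 ± 5.13 with Blnk (SD, n = 3). Cxcr3, a receptor of effector lymphocytes, stood at 60.7 ± 5.51 and 64.0 ± 1.73. Most of these probes were dim, with group means of 10.3 to 81.7, so a change of low transcripts may go unseen. The chemokine ligands of the 8 receptors were not called either, with 0 of 8 up and 0 down (limma, 0 and 0 at an unadjusted p under 0.05; median 0.04). Ccl25, the ligand of CCR9, stood at 172.7 ± 2.52 and 190.0 ± 2.65 (SD, n = 3; limma adjusted p = 0.354).

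Of 19 other receptors for positioning lipids and chemoattractants, 3 rose and 0 fell (limma, 8 up and 1 down by unadjusted p under 0.05, median 0.03). Over all genes, 2.51% rose and 1.10% fell, while the unadjusted counts have no such share beside them. Gpr18, a receptor linked to lipid ligands, read 113, 113 and 127 with pMIG and 294, 382 and 416 with Blnk, a 3.07-fold rise (log2 1.62, SE 0.13; limma adjusted p = 0.000580) that passed with any array left out. Gpr55, a lysophospholipid receptor that also answers some cannabinoids, rose 1.90-fold from 40.3 ± 6.66 to 76.0 ± 7.21 (SD, n = 3; limma adjusted p = 0.00959), but did not pass without pMIG replicate 3 (0.0616), Blnk replicate 2 (0.0744) or Blnk replicate 3 (0.0689). S1pr1, the sphingosine phosphate receptor for exit into blood, rose 1.51-fold (limma adjusted p = 0.0393) but not with any array left out (0.0563 to 0.171) or after repeated quantile normalization (0.0514). The count was 1 without pMIG replicate 3, Blnk replicate 2 or Blnk replicate 3.

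Among enzymes that make or break down oxysterols and endocannabinoids, 2 of 9 rose and 0 fell, where 2.51% of all genes rose and 1.10% fell. The median log2 fold change was 0.17. By unadjusted p under 0.05 in limma 2 were higher and 0 lower, with no all-gene share beside these counts. Both enzymes that rose act on the endocannabinoid side. Abhd6, which hydrolyses the endocannabinoid monoglyceride, went from 65.3 ± 4.04 to 104.7 ± 13.6 (SD, n = 3, limma adjusted p = 0.0133). Napepld, which makes N-acylethanolamines, went from 101.7 ± 0.577 to 134.7 ± 11.0 (SD, n = 3, limma adjusted p = 0.0340). Abhd6 did not pass without pMIG replicate 2 (0.0672), pMIG replicate 3 (0.0907) or Blnk replicate 2 (0.0804), nor Napepld with any array left out (0.0512 to 0.143), after repeated quantile normalization (0.0682) or with arrays centred on their medians (0.0551). The oxysterol enzymes Ch25h (log2 0.20), Cyp7b1 (0.28) and Hsd3b7 (0.17) were dim and did not pass (limma adjusted p = 0.521, 0.386 and 0.491).

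Downstream of the receptors, heterotrimeric G proteins had 0 of 17 members up and 2 down (limma, 4 higher and 3 lower by unadjusted p under 0.05, median 0.00). Over all genes, 2.51% rose and 1.10% fell. The unadjusted counts of this paragraph have no such share beside them, so they show no shift of a list against all genes. The beta subunit Gnb4 read 726, 745 and 768 with pMIG and 425, 414 and 428 with Blnk, log2 -0.82 (SE 0.064; limma adjusted p = 0.000488), and passed with any array left out. The alpha subunit Gnao1, of the inhibitory class, stood at 146.7 ± 2.89 and 102.3 ± 8.33 (SD, n = 3; log2 -0.52, limma adjusted p = 0.0119). It did not pass without pMIG replicate 1 (0.0527), pMIG replicate 2 (0.0542), pMIG replicate 3 (0.0796) or Blnk replicate 2 (0.0595), and the count of lower members was 1 without any of these 4. Regulators that end the signal, RGS proteins with receptor kinases and arrestins, had 0 of 15 up and 0 down (limma, 1 higher and 2 lower by unadjusted p under 0.05; median 0.05). Of 27 effectors of migration and adhesion, 2 rose and 0 fell (limma, 13 higher and 2 lower by unadjusted p under 0.05; median 0.14): the small GTPases Rap1a (log2 0.44, adjusted p = 0.0456) and Cdc42 (0.31, adjusted p = 0.0496). Neither passed with any array left out (0.0725 to 0.168 for Rap1a, 0.115 to 0.157 for Cdc42), nor with arrays centred on their medians (0.0694 and 0.119).

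**Figure D4:**
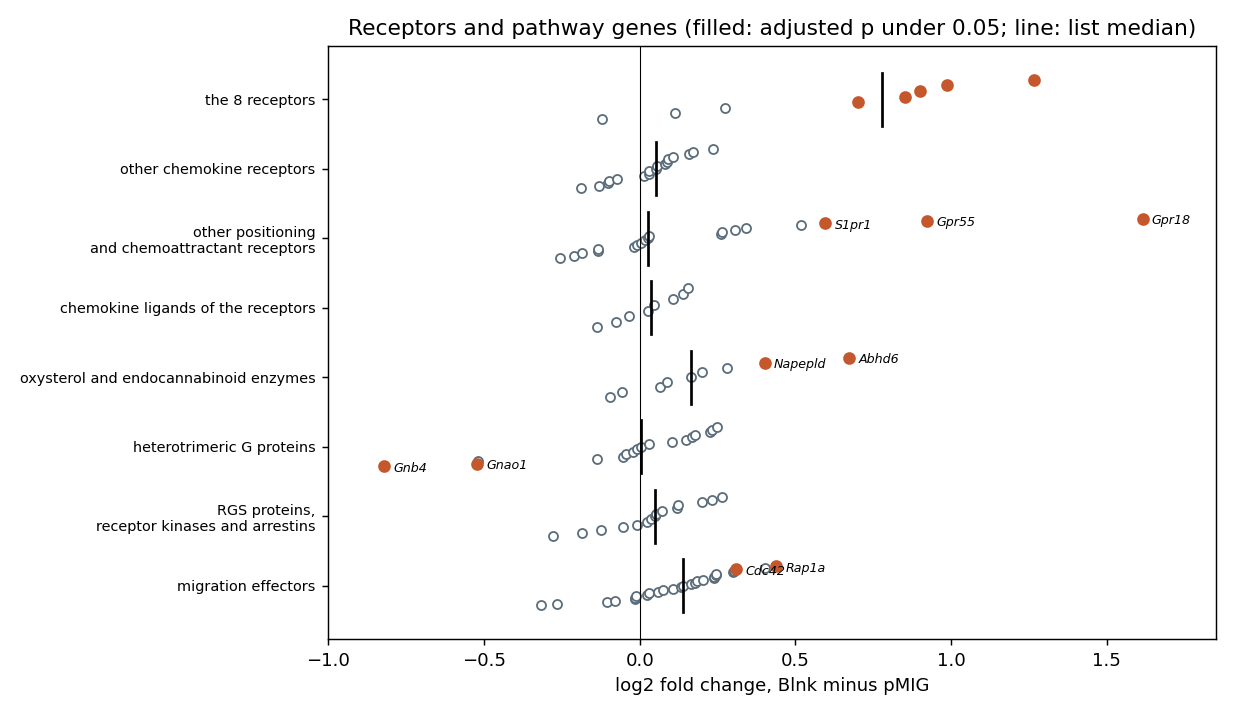
Log2 fold change, Blnk minus pMIG, of the 8 receptors and of 7 lists of pathway genes, 1 point per gene, filled where the adjusted p was under 0.05, with a line at each list's median. The receptors' median of 0.78 lies right of all list medians, which run from 0.00 to 0.17, and Gpr18 at 1.62 and Gnb4 at -0.82 are the outermost points. Receptors and lists were chosen with earlier results of these data known, so this contrast is a description.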

How the data were processed

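Total RNA of 6 samples was measured on Affymetrix arrays. The deposited values are whole-number probe intensities on a linear scale. The submitters' processing notes name RMA, whose output is in log2, so the authors seem to have undone the log and rounded, an inference from the values. Intensities were turned into log2 with nothing added, and each gene was represented by its brightest probe with 1 gene symbol (21789 of 35421 probes, 19938 genes; 1621 probes had several symbols and 12011 were not listed). The test was limma 3.58.1 (lmFit, then eBayes) under R 4.3.3 on the group alone, two-sided, Benjamini-Hochberg over all genes. The number of arrays limits the precision. The fit was tested on simulated data with independent noise. Those data held no change as small as that of Ccr7 and no changed gene as dim as Ccr2. A probe can also read relatives of its gene.

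The 8 receptors and all lists (149 of 161 entries measured outside the 8, 1 through a synonym) were chosen with earlier results of these data known. Named genes were the 8 receptors, Blnk, up to 4 genes per pathway list past the threshold, the 3 nearest profiles of each risen receptor, and the 2 brightest markers per list of other cells. Ackr2, Cxcr3, Ccl25 and the oxysterol enzymes were named after their values were seen. Alternatives were a block on replicate number, quantile normalization, median centring, a filter on the dimmest 40% of genes, an offset of 16, a trended robust prior, array weights, the mean of all probes, and each array left out.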

Additional observations from a re-analysis of the deposited data

How the results depend on the processing

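Of the 8 receptors, 5 rose in the reported comparison and 3 to 5 with 1 array left out, and 0 fell under any alternative run. Cxcr5, Ccr6 and Cnr2 passed under every alternative. Under the filter on dim genes, Ccr2, Ccr9 and Gpr183 were not tested. The median log2 fold change of the receptors lay between 0.67 and 0.85 with 1 array left out. Replicate numbers showed no clear pairing over all genes: same-numbered deviations correlated at -0.19, 0.06 and -0.12. Arrays of different numbers were not compared, and the labels do not say what the numbers stand for, so a pairing is not excluded. With the replicate block, Ccr7 had an adjusted p of 0.0598 and 4 receptors passed, and over all genes 208 rose and 81 fell, against 500 and 220. With the same block, 1 G protein fell, 0 migration effectors, 1 other positioning receptor and 0 enzymes of oxysterols and endocannabinoids (lipid enzymes) rose. Over all genes, the share of higher calls was 69.4%, and 55.7% (411 up, 327 down) after quantile normalization or 58.9% (417 up, 291 down) with median centring. Counts over all genes also moved with the offset (741 up, 359 down), the trended prior (1021 up, 518 down), array weights (593 up, 300 down) and 1 array left out (195 to 304 up, 72 to 133 down). The dim filter gave 807 up and 421 down among only 11963 genes tested, so its counts have a smaller total. Migration effectors up were 0 after quantile normalization, 0 with median centring, 4 with the dim filter, 9 with the trended prior and 0 to 0 with 1 array left out; those down were 1 after quantile normalization, 1 with the dim filter, 1 with the offset, 2 with the trended prior and 1 with array weights. Other positioning receptors up were 5 of only 11 tested with the dim filter. Of all 19 they were 5 with the offset, 7 with the trended prior and 1 to 4 with 1 array left out. Lipid enzymes up were 1 after quantile normalization, 1 with median centring and 0 to 1 with 1 array left out. G proteins up were 1 with the dim filter (16 tested) and 1 with the trended prior (17 tested), and those down 1 to 3 with 1 array left out. Fewer arrays weaken the test by construction, and the causes of the other shifts were not tested. The other chemokine receptors, the ligands and the RGS list had 0 calls under every alternative. Of these the dim filter tested only 5 of 17, 3 of 8 and 11 of 15. Dim probes limit Ccr2, Ccr9, Cnr2 and Gpr183 most.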

Other observations

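The genes that flank the receptors on the chromosome were also looked at, a choice made after the values were seen. Of 45 distinct measured genes among the 3 nearest on each side of a receptor, 3 rose and 0 fell (2.51% of all genes rose and 1.10% fell). Ccr2 had measured neighbours only before it on the chromosome and none after it. The nearest measured neighbour of Gpr183 on one side is Gpr18, which rose 3.07-fold (limma adjusted p = 0.000580), while Gpr183 itself stood at 1.21-fold and did not pass. Next to Ccr9 lies Lztfl1, a protein of ciliary trafficking, which went from 1152 ± 49.9 to 1638 ± 92.5 (SD, n = 3; log2 0.51, limma adjusted p = 0.0102). The chemokine receptor genes close to Ccr9, Cxcr6 (log2 0.09) and Xcr1 (0.09), and those close to Ccr2, Ccr1 (0.17), Ccr1l1 (0.06) and Ccr3 (0.05), did not pass. Among the neighbours of Cxcr4 is Cd55, a brake on complement, which rose from 70.0 ± 13.0 to 171.7 ± 11.0 (SD, n = 3; log2 1.31, limma adjusted p = 0.00188), while Cxcr4 was at 0.11. No measured neighbour of Cxcr5, Ccr6, Ccr7 or Cnr2 among these passed.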
